A study of Mus musculus with 36 samples.

Results

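The hypothalamus of mice given a very low dose of TNFα alone was set directly against that of mice given the low dose of IL-6 alone, with no control arrays in between. The samples were chosen by their labels: 5 TNF arrays and 6 IL-6 Low arrays, 11 of the 36 arrays of the series, each from the hypothalamus of 1 mouse and each hybridised to an Affymetrix Mouse Gene 1.1 ST array. All mice were male C57BL/6 mice with no genetic change, killed 5 h after 1 intraperitoneal injection of 50 µl. The TNF mice received 15 pg TNFα and the IL-6 Low mice 50 pg IL-6. A group given 800 pg IL-6 (IL-6 High, 6 arrays) is used below for values side by side, and the remaining arrays (saline, and TNFα with either dose of IL-6) entered no comparison described here, but are among the 35 arrays that TNF replicate 4 was set against and in 2 alternative fits. The sample labels call the TNFα dose low, although the methods give a single dose of it. Replicate 4 of TNF was left out. Its lower and upper quartiles lay at 5.49 and 6.65 log2 intensity, while those of the other 35 arrays lay at 3.99 to 4.17 and at 7.33 to 7.54. Its median correlation with the rest was 0.27, and that of the others 0.972 to 0.988. The methods state that 1 TNF array was excluded without saying which.

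TNFα and IL-6 are secreted by activated immune cells and act on cells through different receptors. TNFα binds TNFR1 and TNFR2, which recruit adaptors such as TRADD and TRAF2 and release NF-κB from its inhibitor IκBα, encoded by Nfkbia. IL-6 binds its own receptor chain and gp130, encoded by Il6ra and Il6st, which activate JAK kinases and the transcription factor STAT3. Both pathways switch on genes that dampen them, Nfkbia for NF-κB and Socs3 for STAT3. In the hypothalamus these cytokines are known for fever, stress hormone release and loss of appetite, and appetite is set there by peptides such as NPY, which promotes feeding, and POMC products, which restrain it.

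Motifs of the pathways compared here were searched for in Nfkbia and Socs3, and motifs of other regulators in Fos and Acta2. The start regions of these 4 genes are printed because the genes return below. Each runs 5′ to 3′ on the gene's own strand from 250 bases before to 50 bases after the annotated start in RefSeq (GRCm38.p6), with matches to the motif in capitals, found on either strand. For Nfkbia (chr12:55492598-55492897, minus strand) the motif was the κB site, which 8.46% of the 32851 mouse promoters of this length in the table hold. For Socs3 (chr11:117969317-117969616, minus strand) it was the STAT motif TTCNNNGAA, held by 8.3%. For Fos (chr12:85473640-85473939, plus strand) it was TGACG, the core of the cyclic AMP response element, held by 20.8%. For Acta2 (chr19:34255324-34255623, minus strand) it was the CArG box of serum response factor with at most 1 of its 6 inner bases other than A or T, held by 9.98%.
Nfkbia: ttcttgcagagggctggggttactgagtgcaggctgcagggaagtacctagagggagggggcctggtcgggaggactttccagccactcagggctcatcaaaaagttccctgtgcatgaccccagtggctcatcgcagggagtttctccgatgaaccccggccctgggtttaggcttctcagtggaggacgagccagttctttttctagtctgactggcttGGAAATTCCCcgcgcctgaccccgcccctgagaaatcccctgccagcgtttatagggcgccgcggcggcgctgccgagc
Socs3: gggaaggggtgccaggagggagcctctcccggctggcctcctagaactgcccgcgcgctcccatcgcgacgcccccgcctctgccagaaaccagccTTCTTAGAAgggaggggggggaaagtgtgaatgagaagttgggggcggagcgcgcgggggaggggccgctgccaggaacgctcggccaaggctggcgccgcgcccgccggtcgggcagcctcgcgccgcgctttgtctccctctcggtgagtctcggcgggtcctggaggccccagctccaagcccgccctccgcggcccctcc
Fos: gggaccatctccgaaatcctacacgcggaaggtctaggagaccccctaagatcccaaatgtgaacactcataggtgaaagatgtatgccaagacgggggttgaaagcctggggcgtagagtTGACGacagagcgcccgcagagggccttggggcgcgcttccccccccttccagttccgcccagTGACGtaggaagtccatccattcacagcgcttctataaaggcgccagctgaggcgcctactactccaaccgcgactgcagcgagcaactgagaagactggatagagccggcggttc
Acta2: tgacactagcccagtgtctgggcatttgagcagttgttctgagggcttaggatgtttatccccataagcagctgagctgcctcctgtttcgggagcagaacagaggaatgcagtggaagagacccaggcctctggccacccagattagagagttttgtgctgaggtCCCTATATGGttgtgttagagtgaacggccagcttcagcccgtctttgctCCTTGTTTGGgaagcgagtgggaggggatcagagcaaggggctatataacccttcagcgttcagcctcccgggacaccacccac
The κB match of Nfkbia lay 29 to 20 bases before the start and the STAT match of Socs3 154 to 146 bases before it. Fos held 2 matches and Acta2 held 2. Of the NF-κB target genes listed below, 10 of the 17 with a promoter in the table held a κB match, and of the STAT3 target genes 3 of 18 held a STAT match in this window. Of the immediate early genes, 11 of 14 held TGACG. A κB match was also held by 6 of the 18 STAT3 target genes and 7 of the 14 immediate early genes. A gene counted here if any of its promoters matched, whereas the percentages above are per promoter. A match is a description of the letters and was not related to any difference.

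No gene separated TNF from IL-6 Low after adjustment. Of 14564 genes tested with limma (a moderated linear model, Benjamini-Hochberg adjustment over all of them), 0 had an adjusted p under 0.05 (0% called), and the smallest adjusted p was 0.998. Without adjustment 430 genes had a p under 0.05, of which 284 had a higher mean in TNF (1.95% of genes) and 146 a lower one (1%). This split varied with the processing: it was 548 higher and 87 lower with each array centred on its median, and 406 and 517 with array weights. Differences were small: 93% of the genes differed by less than 0.2 on the log2 scale, with a median standard error of 0.0992. By a fold over 1.5 on group means 11 genes were higher in TNF (0.0755%) and 6 lower (0.0412%), and 5 of these 17 had an unadjusted p under 0.05. The mean of TNF was the higher one for 60.6% of the genes at any size, with a median difference of 0.02. Without IL-6 Low replicate 4 this share was 48.3% and the unadjusted counts were 152 higher and 273 lower, so the excess of genes higher in TNF was not kept without that array. The plot of all genes shows that the genes of smallest p and the genes of largest difference were not the same ones, and they are described in turn.

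**Figure D1:**
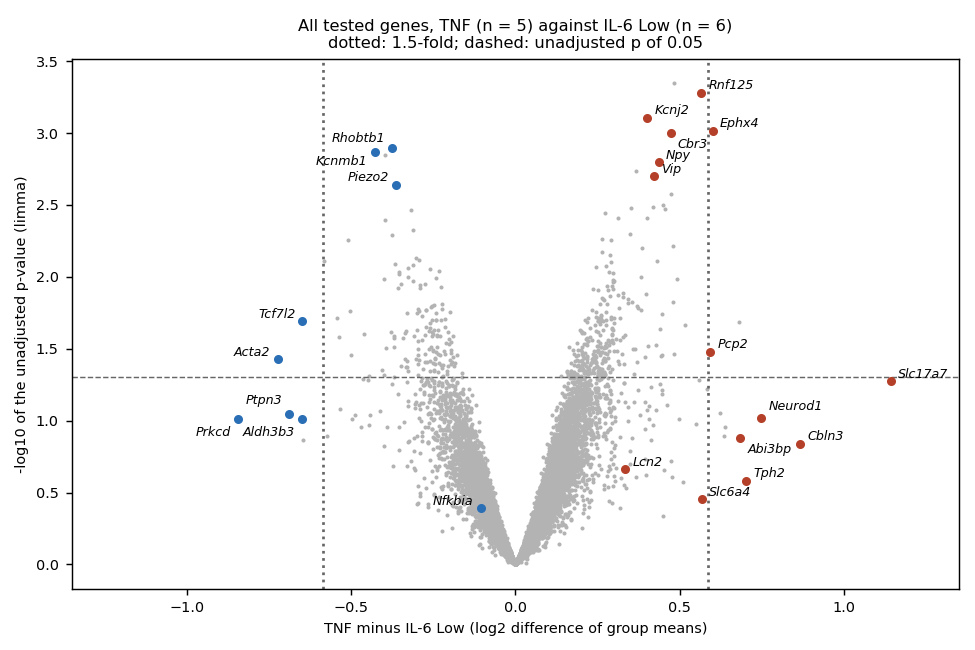
Log2 difference of group means (TNF minus IL-6 Low, x axis) against -log10 of the unadjusted limma p (y axis) for the 14564 tested genes, with named genes coloured (red higher in TNF, blue lower). Slc17a7, Cbln3 and Prkcd lie farthest out at modest p-values, whereas Rnf125, Kcnj2 and Kcnmb1 lie near the top at 0.57, 0.40 and -0.43.

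Among the genes of smallest p that were higher in TNF, 4 were above every IL-6 Low array on every TNF array: Kcnj2, Ephx4, Cbr3 and Rnf182. Over all genes this held for 14 (0.0961%). Kcnj2, which encodes the inward rectifier potassium channel Kir2.1, had 6.23, 6.26, 6.23, 6.47 and 6.54 log2 intensity on the TNF arrays (replicates 1, 2, 3, 5 and 6, the order used throughout), against 5.80 (lowest), 5.92 (median) and 6.19 (highest) on the IL-6 Low arrays. Its difference was 0.40 (SE 0.10, unadjusted p = 0.000779, limma adjusted p = 0.998), and the groups came closest at 6.23 and 6.19 without crossing. Ephx4, an epoxide hydrolase family member, had 6.38, 6.47, 6.22, 6.38 and 7.32 on the TNF arrays, against 5.79, 5.95 and 6.13 on the IL-6 Low arrays. The difference was 0.60 (SE 0.15), a fold of 1.52, but TNF replicate 6 stood well above the other TNF arrays and without it the difference was 0.41.

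Cbr3, a carbonyl reductase, was dim on every array, with 4.38, 4.25, 4.14, 4.56 and 4.81 on the TNF arrays, against 3.81, 3.95 and 4.14 on the IL-6 Low arrays. The difference was 0.47 (SE 0.12), and the lowest TNF array and the highest IL-6 Low array were almost level. Rnf182, a RING-type ubiquitin ligase of the brain, had 6.24, 6.75, 6.37, 6.63 and 6.37 on the TNF arrays, against 5.99, 6.11 and 6.24 on the IL-6 Low arrays, again with a lowest TNF array just above the highest IL-6 Low array. Rnf125, another ubiquitin ligase, had the smallest p among the genes named here (0.000525, difference 0.57, SE 0.13), with 5.55, 5.33, 5.54, 5.64 and 5.38 on the TNF arrays, against 4.58, 4.86 and 5.39 on the IL-6 Low arrays. Its groups overlapped through IL-6 Low replicate 3, the brightest array of its group, and without that array the difference was 0.66.

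Npy and Vip, peptides made by hypothalamic neurons, were also among the 10 genes of smallest p that were higher in TNF. Npy, whose product is the feeding peptide of the arcuate nucleus, had 8.15, 8.50, 8.52, 8.10 and 8.56 on the TNF arrays, against 7.74, 7.85 and 8.33 on the IL-6 Low arrays. TNF replicates 2, 3 and 6 were above every IL-6 Low array, while replicates 1 and 5 were below IL-6 Low replicate 2, the brightest of its group. The difference was 0.44 (SE 0.12, unadjusted p = 0.0016, limma adjusted p = 0.998) and lay between 0.39 and 0.52 when any 1 array was left out. Vip, the peptide of suprachiasmatic neurons that couples the cells of the circadian clock, had 6.45, 6.63, 6.51, 6.13 and 6.70 on the TNF arrays, against 5.76, 6.09 and 6.26 on the IL-6 Low arrays. TNF replicate 5 alone fell within the IL-6 Low range, and the difference was 0.42 (SE 0.12, unadjusted p = 0.00199). The remaining genes of smallest p that were higher in TNF were Fam111a (0.47), Caln1, which encodes a neuronal calcium-binding protein (0.45), and Ankrd33b (0.42), and their groups overlapped.

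**Figure D2:**
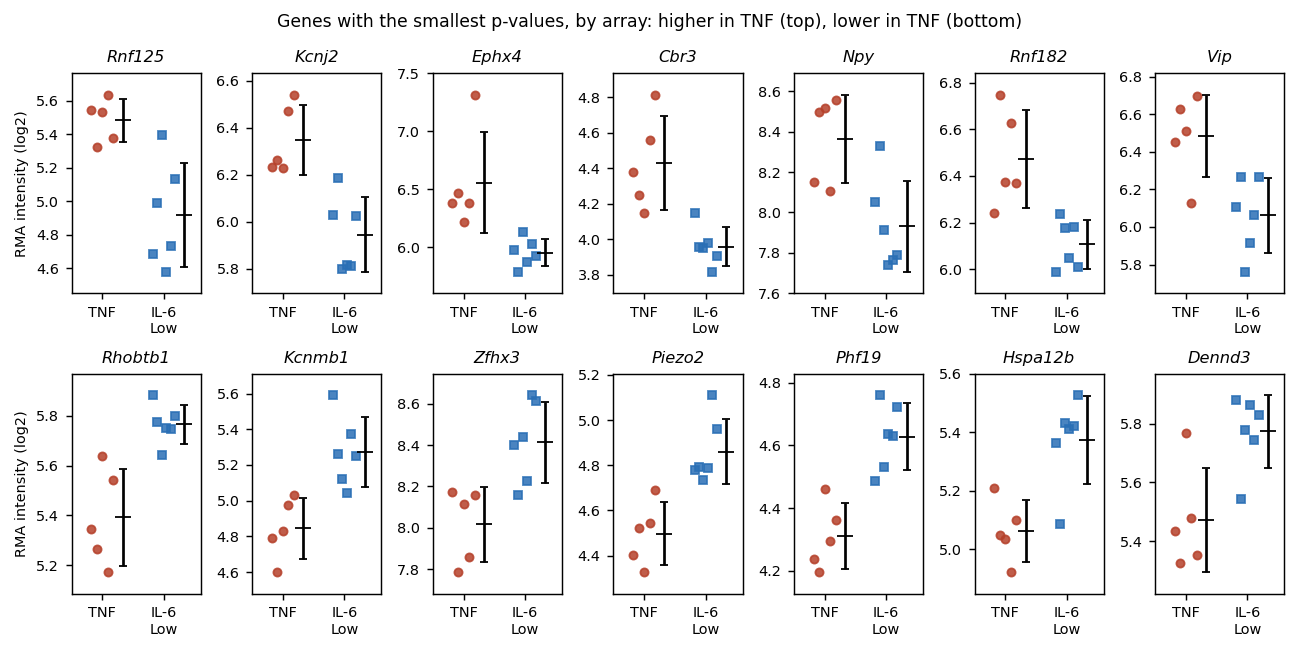
Log2 RMA intensity (y axis) of 14 genes of small p, each array a point (TNF circles, n = 5; IL-6 Low squares, n = 6), with the group mean and SD in black. Kcnj2, Ephx4, Cbr3 and Rnf182 do not overlap in the top row, nor do Rhobtb1, Kcnmb1, Piezo2 and Phf19 in the bottom row, while Npy overlaps through 1 IL-6 Low array at 8.33.

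Among the genes of smallest p that were lower in TNF, Rhobtb1, Kcnmb1, Piezo2 and Phf19 were below every IL-6 Low array on every TNF array, which held for 11 of all genes (0.0755%). Kcnmb1 encodes the β1 subunit of the calcium-activated BK potassium channel of smooth muscle. It had 4.79, 4.60, 4.83, 4.97 and 5.03 on the TNF arrays, against 5.04, 5.26 and 5.59 on the IL-6 Low arrays, so the groups met at 5.03 and 5.04. Its difference was -0.43 (SE 0.11, unadjusted p = 0.00135, limma adjusted p = 0.998). Rhobtb1 had 5.35, 5.26, 5.64, 5.17 and 5.54 on the TNF arrays, against 5.64, 5.76 and 5.88 on the IL-6 Low arrays, and the groups met at 5.64. Its difference was -0.37 (SE 0.10).

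Piezo2, a mechanically gated cation channel, had 4.40, 4.52, 4.33, 4.55 and 4.69 on the TNF arrays, against 4.74, 4.79 and 5.11 on the IL-6 Low arrays (difference -0.36, SE 0.10). This is its brightest transcript cluster of 3, and 1 of the 3 had a higher mean in TNF. Phf19, a Polycomb-associated protein, had 4.24, 4.20, 4.46, 4.30 and 4.36, against 4.49, 4.63 and 4.76 in IL-6 Low (difference -0.32, SE 0.09). Zfhx3, a homeobox transcription factor known from the suprachiasmatic nucleus, had 8.17, 7.78, 8.11, 7.86 and 8.16 on the TNF arrays, against 8.16, 8.42 and 8.64 on the IL-6 Low arrays. It was highest on IL-6 Low replicates 3, 5 and 6 (8.44, 8.64 and 8.61), which were also highest for Tcf7l2 and Prkcd, described below. The Zfhx3 groups overlapped at their edges, and the difference was -0.40 (SE 0.10, unadjusted p = 0.00142). The others of smallest p that were lower in TNF were Hspa12b (-0.31), a heat shock protein relative known from endothelial cells, Dennd3 (-0.30), Mansc4 (-0.37, 1 of whose 2 clusters had a higher mean in TNF), and 2 genes of innate defence families, Defb34 (-0.40) and Ifnab (-0.51), both dim and overlapping.

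The receptors through which the 2 cytokines act had overlapping ranges in the groups. Tnfrsf1a, the gene of TNFR1, had 5.99, 6.06, 5.82, 6.31 and 6.25 on the TNF arrays, against 5.88, 6.26 and 6.43 on the IL-6 Low arrays (difference -0.15, SE 0.11). The difference of Tnfrsf1b, the gene of TNFR2, was -0.08 (SE 0.09). Il6ra differed by -0.08 (SE 0.09) and Il6st by 0.01 (SE 0.07), and Il6st was bright on all arrays, between 9.22 and 9.41 in TNF and between 9.13 and 9.39 in IL-6 Low. The messages of the injected cytokines themselves were low: Tnf did not exceed 4.57 on the TNF arrays or 4.48 on the IL-6 Low arrays, and Il6 did not exceed 2.37 or 2.22. Neither passed the minimum intensity on at least 3 arrays, and no test was made.

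Of 18 tested genes of the TNF receptors and NF-κB transducers 9 had a higher mean in TNF, with a median difference of 0.004, beside 0.02 for all genes. The adaptor Traf2 (0.21) and the precursor of the NF-κB subunit p52, Nfkb2 (0.14, SE 0.08), were higher. Nfkb2 had 5.20, 5.14, 5.12, 5.30 and 5.17 on the TNF arrays, against 4.98, 5.05 and 5.11 on the IL-6 Low arrays. These groups did not overlap, although they came close at 5.12 and 5.11, and the unadjusted p was 0.117. Birc3, an inhibitor of apoptosis that binds TRAF2, differed by -0.23 (SE 0.16), with TNF replicates 2 and 3 at 4.71 and 4.80 below the whole IL-6 Low range of 5.23 to 5.63.

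Of 21 NF-κB target genes tested 13 had a higher mean in TNF and 0 had an unadjusted p under 0.05, and the median difference was 0.03. Nfkbia had 7.29, 7.44, 7.0, 7.23 and 7.39 on the TNF arrays, against 7.07, 7.34 and 7.77 on the IL-6 Low arrays (difference -0.10, SE 0.12), with all TNF arrays but replicate 3 inside the IL-6 Low range. Ccl2, which encodes the chemokine MCP-1, had 4.29, 4.18, 4.13, 4.35 and 4.40, against 4.29, 4.42 and 4.62 in IL-6 Low (difference -0.18, SE 0.10, unadjusted p = 0.0826). Lcn2, the iron-binding acute phase protein lipocalin 2, had 4.89, 5.61, 5.10, 6.26 and 5.44, against 4.42, 4.94 and 5.97 in IL-6 Low. Its difference of 0.33 (SE 0.26) came with a wide spread in both groups, from TNF replicate 5 at the top to IL-6 Low replicate 2 at the bottom.

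Of 13 IL-6 receptor and JAK-STAT genes tested 8 had a higher mean in TNF (median 0.01). Stat3 differed by 0.10 (SE 0.09), and the kinase Tyk2 by -0.22 (SE 0.11). Of 21 STAT3 target genes 11 were higher in TNF and 10 lower, and 0 had an unadjusted p under 0.05 (median 0.04). Socs3, the feedback inhibitor of the IL-6 receptor, had 4.69, 4.80, 4.97, 5.04 and 5.04 on the TNF arrays, against 4.73, 4.95 and 5.00 on the IL-6 Low arrays. The ranges coincided almost fully (difference -0.003, SE 0.10). Of 18 interferon response genes 10 were higher in TNF (median 0.005), and 1 had an unadjusted p under 0.05. This was Usp18, a protease that removes ISG15 and dampens interferon signalling, at -0.37 (SE 0.15). Over all genes 60.6% had a higher mean in TNF, and 1% were lower at this p. In the kynurenine pathway, which breaks down tryptophan, 5 genes were tested and 2 were higher in TNF, and Ido1, its cytokine-induced first enzyme, did not exceed 4.36 on the TNF arrays or 4.04 on the IL-6 Low arrays and did not pass the minimum on at least 3 arrays.

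**Figure D3:**
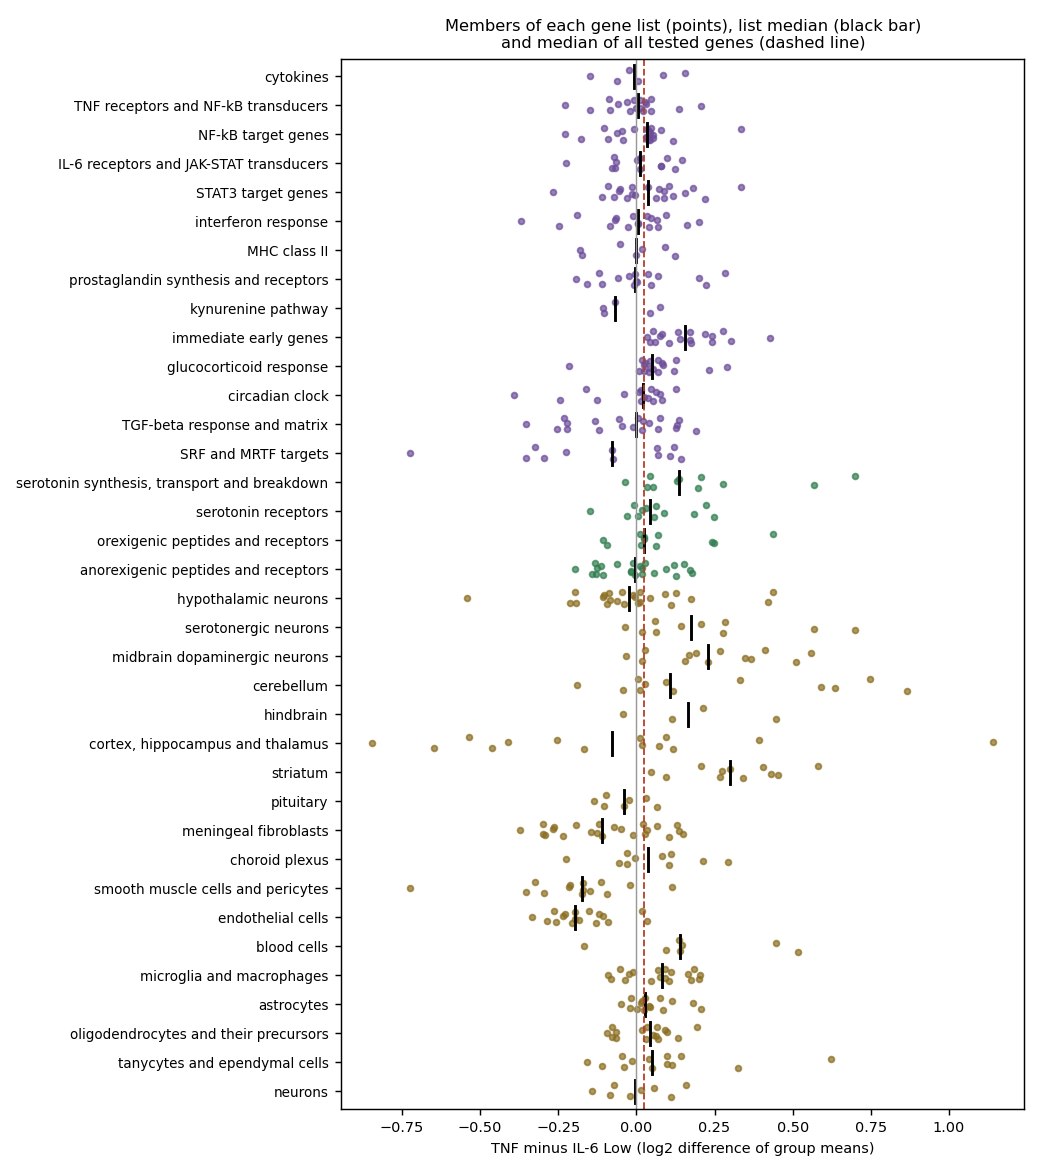
TNF minus IL-6 Low log2 difference (x axis) of every tested member (points) of each gene list, with list medians (black bars) and the median of all genes, 0.02 (dashed line). The NF-κB and STAT3 lists centre near 0, all 18 immediate early genes and all 11 striatal genes lie to the right, and 15 of 17 endothelial genes lie to the left.

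Of the genes of feeding, 9 of 11 orexigenic peptides and receptors were higher in TNF (median 0.02), led by Npy and by Mchr1, the receptor of melanin-concentrating hormone (0.24, SE 0.12, and 0.12 without TNF replicate 6). Only 5 of the 11 were higher without TNF replicate 2, and likewise without IL-6 Low replicate 4, when the median was -0.01. Of 23 anorexigenic genes 11 were higher and 12 lower (median -0.004). Pomc had 6.02, 5.74, 5.96, 6.00 and 6.03 on the TNF arrays, against 5.28, 5.79 and 6.48 on the IL-6 Low arrays, all TNF arrays lying within the wider IL-6 Low range (difference 0.13, SE 0.19). Of 12 serotonin receptors 9 were higher in TNF, 2 of them with an unadjusted p under 0.05: Htr5b (0.22, SE 0.10) and Htr2a (0.25, SE 0.12, and 0.14 without TNF replicate 6). Over all genes 60.6% were higher and 1.95% were higher at this p. The median of the receptors was 0.04, and 0.001 without TNF replicate 6, when 6 of 12 were higher.

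The serotonin genes had most of their difference on a single array. Among 11 genes that make, carry or degrade serotonin, 10 had a higher mean in TNF, with a median of 0.14, which was 0.01 without TNF replicate 5. Tph2, the rate-limiting enzyme of serotonin synthesis in neurons, had 4.95, 3.79, 4.33, 8.47 and 4.16 on the TNF arrays, against 3.73, 4.31 and 5.70 on the IL-6 Low arrays. The difference of 0.70 (SE 0.60, unadjusted p = 0.262) was -0.13 without TNF replicate 5. Slc6a4, the serotonin transporter, had 4.80, 4.18, 3.95, 8.58 and 4.45, against 4.17, 4.44 and 5.68 in IL-6 Low, and its difference of 0.57 (SE 0.60) was -0.28 without TNF replicate 5.

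TNF replicate 5 was also high in other genes of the brain stem, and the brightest IL-6 Low array for Tph2 and Slc6a4 was the same one, replicate 6. Rln3, which encodes relaxin-3 of the pontine nucleus incertus and was named after its values were seen, had 7.63 on TNF replicate 5, 4.63 to 5.59 on the other TNF arrays and 4.28 to 5.29 in IL-6 Low. Slc6a5, the glycine transporter of hindbrain and spinal neurons, had 7.85 on TNF replicate 5 and 6.47 on IL-6 Low replicate 4, against 3.75 to 4.77 on the other TNF arrays and 3.85 to 4.37 on the other IL-6 Low arrays. The serotonergic neuron markers (10 tested, 9 higher in TNF, median 0.18) had a summed intensity of 765.1 to 2527 over the TNF arrays, against 929.1 to 1332 over the IL-6 Low arrays. Tph2, Slc6a4, Ddc, Slc18a2 and Maob are members both of this list and of the serotonin genes above. The likeness of these lists is therefore no separate evidence. The midbrain dopaminergic markers (12 of 13 higher, median 0.23) ranged more widely in TNF, from 1702 to 4896, against 1482 to 3236 in IL-6 Low. Without TNF replicate 5 the medians were -0.006 and 0.10, with 5 of 10 serotonergic and 10 of 13 dopaminergic markers higher. With every array, 60.6% of all genes had a higher mean in TNF. The part of these markers in the serotonin differences was not tested. In bulk tissue, fewer cells of a type and less RNA per cell cannot be told apart.

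Of the 10 genes of largest mean difference, 5 were far higher on 1 array than on any other, Tph2 among them. Cbln3 and Neurod1, known from cerebellar granule cells, had 8.57 and 8.44 on TNF replicate 2, while no other TNF array exceeded 4.62 for Cbln3 or 5.77 for Neurod1, and no IL-6 Low array exceeded 5.12 or 5.72. Their differences of 0.87 (SE 0.57) and 0.75 (SE 0.42) were 0.04 and 0.14 without that array. Fat2 (7.18) and Pcp2 (6.64, a Purkinje cell gene) were highest on the same array. Abi3bp had 8.42 on TNF replicate 6, 5.00 to 5.45 on the other TNF arrays and 4.97 to 5.48 in IL-6 Low, and its difference of 0.68 (SE 0.43) was 0.04 without replicate 6.

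TNF replicate 6 also carried the striatal genes. Of 11 striatal markers tested all were higher in TNF (median 0.30), and without this array 7 were (median 0.10). Ppp1r1b, the dopamine-regulated phosphatase inhibitor DARPP-32 of striatal projection neurons, had 5.95, 6.31, 5.97, 6.58 and 8.20 on the TNF arrays, against 5.86, 5.93 and 6.40 on the IL-6 Low arrays. Drd1, a dopamine receptor of the same neurons, had 7.80 on TNF replicate 6 and between 6.14 and 6.49 on the other TNF arrays, against 6.04 to 6.32 in IL-6 Low. Crym, a thyroid hormone binding protein, had 8.15 on TNF replicate 6 and at most 6.27 on any other of the 11 arrays.

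The 18 immediate early genes, which neurons switch on within minutes of activity, were all higher in TNF (median 0.15), but 0 had an unadjusted p under 0.05. Without TNF replicate 6 the median was 0.03 and 12 of 18 were higher, so the one-sided direction of the list came with the array on which the striatal genes were high. Their summed intensity was 1473 to 2583 over the TNF arrays, against 1411 to 1648 over the IL-6 Low arrays. Arc, an activity-regulated gene of dendrites, had 6.24, 6.20, 6.17, 7.35 and 7.65 on the TNF arrays, against 5.98, 6.27 and 6.58 on the IL-6 Low arrays (difference 0.43, SE 0.23). TNF replicates 5 and 6 were above every IL-6 Low array, and the remaining 3 lay within the IL-6 Low range. Homer1 (8.67) and Fosl2 (7.0) were highest on replicate 6, and Fos (6.20) on replicate 5. Fos had 5.61, 5.74, 5.38, 6.20 and 5.63 on the TNF arrays, against 5.26, 5.50 and 5.68 on the IL-6 Low arrays (difference 0.22, SE 0.13).

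Slc17a7, the vesicular glutamate transporter VGLUT1 of cortical and other forebrain neurons, had the largest mean difference of all genes named here, 1.14 (SE 0.55), a fold of 2.21, with an unadjusted p of 0.0531. It had 6.48, 7.58, 6.26, 9.13 and 9.53 on the TNF arrays, against 5.34, 7.10 and 7.66 on the IL-6 Low arrays. TNF replicates 5 and 6 were well above every IL-6 Low array, the other 3 TNF arrays lay inside the IL-6 Low range, and without replicate 6 the difference was 0.71. Ano3 (0.68, SE 0.27), a membrane protein of the anoctamin family, also passed the fold over 1.5 and was highest on TNF replicate 6 (9.43). It was named after its values were seen, as were Rln3 and Tns1, which passed this fold as well.

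**Figure D4:**
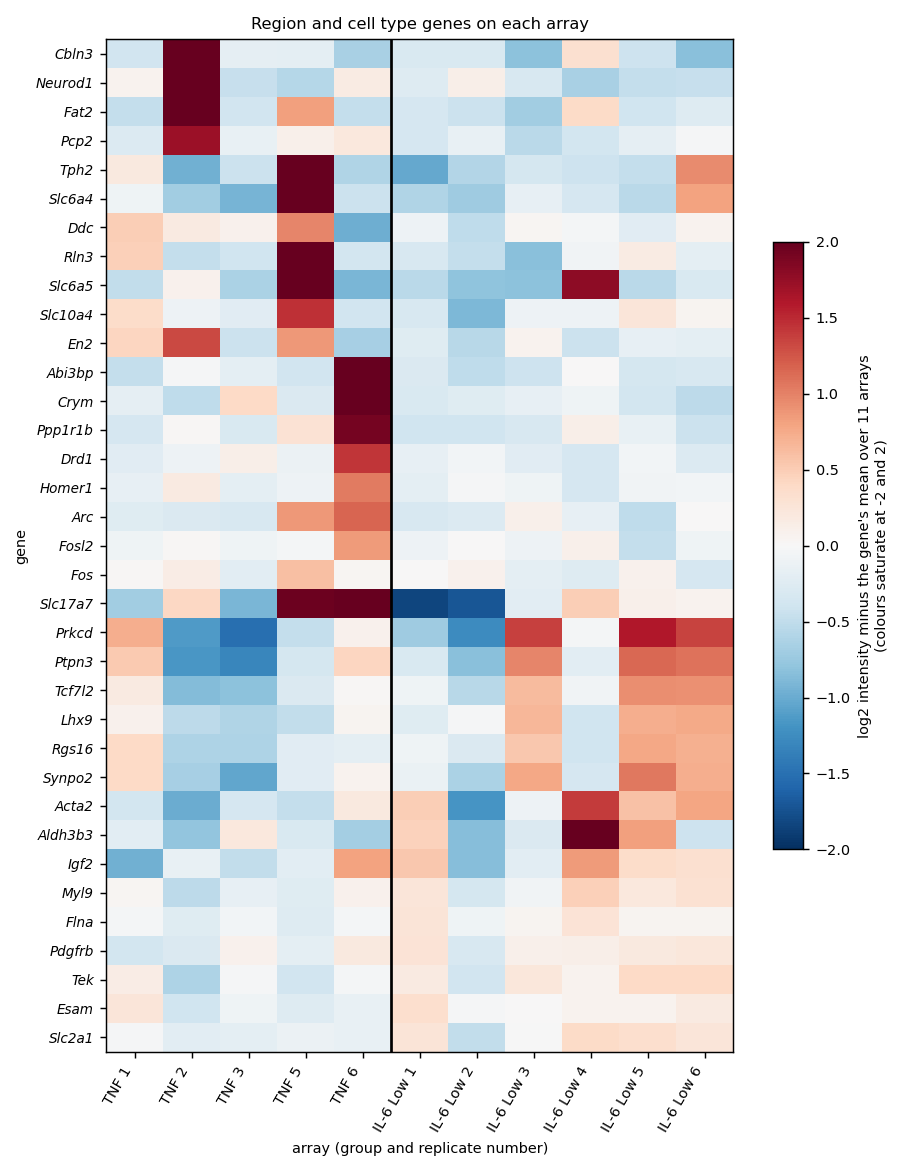
Log2 intensity of 35 region and cell type genes (rows) on the 5 TNF arrays (left of the line) and 6 IL-6 Low arrays (right), as the deviation from each gene's mean over the 11 arrays. Cbln3 and Neurod1 stand out on TNF replicate 2, Tph2 and Slc6a4 on TNF replicate 5, Ppp1r1b and Abi3bp on TNF replicate 6, and Prkcd and Tcf7l2 on IL-6 Low replicates 3, 5 and 6.

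Of the 5 genes that were lower in TNF by the largest mean difference, Prkcd, Ptpn3 and Tcf7l2 went together over the arrays. Tcf7l2, a Wnt pathway transcription factor of thalamic neurons, had 8.99, 7.94, 7.98, 8.52 and 8.83 on the TNF arrays, against 8.24, 9.09 and 9.74 on the IL-6 Low arrays (difference -0.65, SE 0.25, unadjusted p = 0.0204). IL-6 Low replicates 3, 5 and 6, at 9.44, 9.74 and 9.72, were above every TNF array, and the other 3 were not. Prkcd, protein kinase Cδ, another gene bright in the thalamus, had 8.57, 6.71, 6.35, 7.38 and 7.93, against 6.59, 8.51 and 9.46 in IL-6 Low (difference -0.84, SE 0.48), with the same 3 IL-6 Low arrays on top. Ptpn3, a protein tyrosine phosphatase, differed by -0.69 (SE 0.38), and Rgs16 (-0.46), Synpo2 (-0.53) and Lhx9 (-0.54) were also highest on those 3 arrays. The list of cortex, hippocampus and thalamus markers as a whole had 7 of 14 members higher in TNF, but this joins genes of opposite direction. Its members ran from Prkcd (-0.84) to Slc17a7 (1.14), and Tcf7l2, Synpo2 and Rgs16 were also among the 7 lower ones. The summed intensity of the list was 1776 to 3698 over the TNF arrays, against 1936 to 3889 over the IL-6 Low arrays. The part of this list in these differences was not tested.

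Most genes of the vessel wall had a lower mean in TNF. Of 14 markers of smooth muscle cells and pericytes 13 had a lower mean in TNF (median -0.17), 2 with an unadjusted p under 0.05, and of 17 endothelial markers 15 (median -0.20), also 2. Over all genes 1% were lower at this p, and 60.6% had a higher mean in TNF. When any 1 array was left out, at most 2 mural and 3 endothelial members had a higher mean in TNF, with medians of -0.27 to -0.12 for mural cells and -0.30 to -0.13 for endothelial cells, although the differences were small and no member passed after adjustment. Both lists were lowest on replicate 2 of either group, and their summed intensities were 1056 to 1624 (mural) and 3572 to 4401 (endothelial) over the TNF arrays, against 998.1 to 2008 and 3288 to 5067 over the IL-6 Low arrays. Acta2, smooth muscle α-actin, had 6.81, 6.20, 6.85, 6.70 and 7.38 on the TNF arrays, against 6.01, 7.72 and 8.58 on the IL-6 Low arrays (difference -0.72, SE 0.32, unadjusted p = 0.0374). IL-6 Low replicates 1, 4, 5 and 6 were above every TNF array, and replicate 2 was below all of them. Without replicate 4 the difference was -0.51.

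Myl9, the regulatory light chain of smooth muscle myosin, differed by -0.30 (SE 0.14), and Pdgfrb, the pericyte receptor for PDGF, by -0.22 (SE 0.12). Flna, an actin crosslinker that is in neither the mural nor the endothelial list, differed by -0.23 (SE 0.09). It belongs to a list of serum response factor targets, as do Acta2 and Myl9. Of its 12 tested members 7 had a lower mean in TNF and 5 a higher one (median -0.08), among them Vcl (0.14) and Tpm1 (0.12). Among endothelial genes, Tek, the angiopoietin receptor TIE2, had 6.60, 5.84, 6.43, 6.07 and 6.41 on the TNF arrays, against 6.07, 6.66 and 6.85 on the IL-6 Low arrays (difference -0.33, SE 0.15). The cell adhesion molecule Esam differed by -0.23 (SE 0.11), and Slc2a1, the glucose transporter GLUT1 of the blood-brain barrier, by -0.26 (SE 0.12). For Slc2a1 all 5 TNF arrays lay between 10.29 and 10.47, while 5 of the 6 IL-6 Low arrays lay between 10.49 and 10.88 and replicate 2 was lowest of all at 10.01.

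Meningeal genes moved beside the vessel genes on some of the same arrays, and pituitary genes did so only in part. Of 23 markers of meningeal fibroblasts 15 had a lower mean in TNF (median -0.11), but the median was 0.02 without IL-6 Low replicate 4, and their summed intensity was 1586 to 3411 over the TNF arrays, against 1328 to 3598 over the IL-6 Low arrays. Igf2, a growth factor of the meninges, had 7.0, 7.82, 7.47, 7.75 and 8.77, against 7.11, 8.31 and 8.81 in IL-6 Low (difference -0.37, SE 0.28). The summed intensity of 7 pituitary markers was 502.3 to 1113 over the TNF arrays, against 554.8 to 2822 over the IL-6 Low arrays. In mean log2 deviation from each gene's own mean, the pituitary list was highest on IL-6 Low replicate 4 (0.952). The mural list was highest there too (0.384). On IL-6 Low replicates 1, 5 and 6 the pituitary list was low (-0.227, -0.193 and -0.236). On these arrays the mural list was high (0.168, 0.21 and 0.247). Aldh3b3, an aldehyde dehydrogenase, had 9.55 on IL-6 Low replicate 4, against 6.70 to 7.70 over the TNF arrays, and its difference of -0.65 (SE 0.37) was -0.30 without that array. Tns1, a focal adhesion protein named after its values were seen, was highest on the same array (9.82), and its difference of -0.65 was also -0.30 without it. Of the 6 Tns1 clusters, 2 had a higher mean in TNF. Without IL-6 Low replicate 4, 13 of 14 mural and 15 of 17 endothelial markers were still lower in TNF.

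Among the peptide genes of the hypothalamic markers whose values are given here, Sst, Npy, Vip and Pomc were above the minimum intensity on all 11 arrays. The share of hypothalamic tissue on each array was not tested. Sst, the somatostatin gene, lay between 10.45 and 10.72 over the TNF arrays and between 10.22 and 10.73 over the IL-6 Low arrays. Of 24 hypothalamic markers 10 had a higher mean in TNF (median -0.02), and of 8 general neuronal markers 4 (median -0.003). The peptide genes Tac2 (-0.21), Oxt (-0.20), Hcrt (-0.11) and Avp (-0.10) were among the hypothalamic markers with a lower mean. Among glia, 12 of 18 microglial and macrophage markers were higher in TNF (median 0.08), with C1qb, a complement component, at 0.20 (SE 0.09). The 6 lower ones included Cd68 (-0.09) and Siglech (-0.08). Higher in TNF were also 12 of 15 astrocyte markers (median 0.03) and 11 of 16 oligodendrocyte markers (median 0.04). Over all genes the share was 60.6%, and the microglial (66.7%) and oligodendrocyte (68.8%) shares lay near it. Without TNF replicate 5 only 2 of the oligodendrocyte markers and 6 of the astrocyte markers were higher.

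The same 5 TNF arrays were set against the 6 IL-6 High arrays, and because the TNF arrays are shared the values are given side by side without a test of their likeness. In that comparison 0 genes passed after adjustment as well (0% called, smallest adjusted p 1 by limma), and 398 had an unadjusted p under 0.05. Kcnmb1 differed by -0.45 (SE 0.11) from IL-6 High and by -0.43 from IL-6 Low. Kcnj2 differed by 0.39 (SE 0.14) and 0.40, Ephx4 by 0.55 (SE 0.16) and 0.60, Rnf125 by 0.48 (SE 0.13) and 0.57, and Vip by 0.37 (SE 0.14) and 0.42. For Npy the difference from IL-6 High was 0.22 (SE 0.19), against 0.44 from IL-6 Low, and IL-6 High arrays ran from 7.26 to 8.59, past both ends of the TNF range. For Rnf182 it was 0.13 (SE 0.10), against 0.37. Among the genes of the vessel wall, Acta2 differed by -0.27 (SE 0.30) from IL-6 High and Tek by -0.02 (SE 0.16), against -0.72 and -0.33 from IL-6 Low. Whether the 2 doses of IL-6 differ in these genes was not tested.

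**Figure D5:**
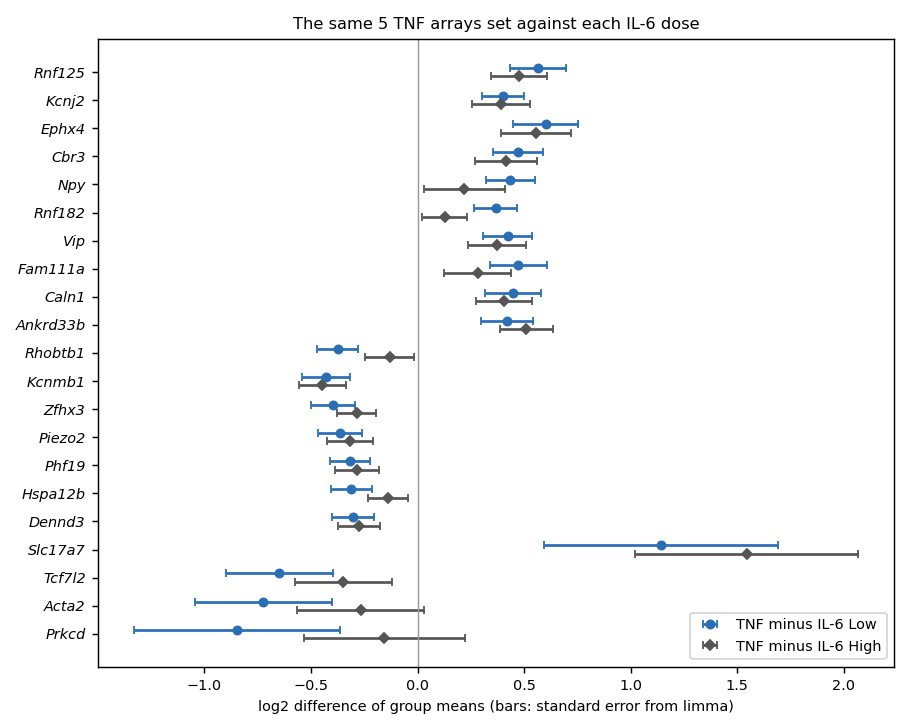
Log2 difference of the same 5 TNF arrays from IL-6 Low (circles, n = 6) and from IL-6 High (diamonds, n = 6) for 21 genes, with standard errors from limma as bars. Kcnmb1 lies at -0.43 and -0.45, Npy at 0.44 and 0.22, and Acta2 at -0.72 and -0.27.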

How the data were processed

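Hypothalamic RNA was measured on 1 Affymetrix Mouse Gene 1.1 ST array per mouse. The authors had summarized the arrays with RMA (background correction, quantile normalization and summarization, version not given in the sources used here), and the deposited log2 values were used without further normalization. They are values of the array's own transcript clusters, whereas the paper describes probe sets remapped to genes. Of 35556 clusters, 21218 name 1 gene and were used, and 1881 name several and 12457 none. For 1386 genes with several clusters, the cluster of highest mean was taken (18820 genes). Genes with an intensity over 20 on at least 3 of the 11 arrays were tested (14564).

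R 4.3.3 and limma 3.58.1 (lmFit, eBayes with an intensity trend) were used on the 11 arrays alone, with Benjamini-Hochberg adjustment over all tested genes, a threshold of 0.05 and two-sided p-values. The fit was tested on simulated data. Precision is limited by how few arrays there are. A p-value sets the difference of group means against the spread between the mice within groups, moderated over all genes. Lists are described by counts and medians, without a test, and summed intensities are on the linear scale over a list's tested members.

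The groups, lists and rules were chosen with earlier results of these data known. The genes named are the 10 of smallest p and the 5 of largest difference in each direction, genes that the paper names or that stand for a pathway, and up to 4 of smallest p in each list. No predicted gene, olfactory or vomeronasal receptor, immune receptor segment or small RNA is named, and 1 further gene that the paper names is not reported here. Promoters are from RefSeq (GRCm38.p6). Alternatives covered filters, scaling, array weights, the arrays in the fit, blocks and leaving out each array.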

Additional observations from a re-analysis of the deposited data

Results flagged for a closer look

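Over 164 sets of a named gene in 1 group, 21 values lay apart from their group by Dixon's test at its 95% critical value. Chance does this for about 1 set in 20, but many of these genes were named for their large differences, which single high arrays can give, so the count cannot be read against chance. On TNF replicate 6, Ephx4 (7.317), Abi3bp (8.416), Fosl2 (7.0), Ppp1r1b (8.199) and Drd1 (7.801) were high. On TNF replicate 5, Tph2 (8.469), Slc6a4 (8.577) and Slc6a5 (7.846) were high. On TNF replicate 2, Cbln3 (8.568), Neurod1 (8.435) and Pcp2 (6.641) were high and Pomc (5.739) was low. On TNF replicate 3, Tns1 was high (8.769).

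Among the IL-6 Low arrays, Tph2 (5.701) and Slc6a4 (5.685) were high on replicate 6, and Slc6a5 (6.47) on replicate 4. Low values were Caln1 (7.769) and Fosl2 (5.672) on replicate 5, Hspa12b (5.088) and Pdgfrb (6.659) on replicate 2, and Tnfrsf1a (5.885) on replicate 3.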

How the results depend on the processing

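No gene reached an adjusted p under 0.05 (limma) in the main analysis or under any of the 23 alternatives, in which the smallest adjusted p was 0.578 (without IL-6 Low replicate 3). The number with an unadjusted p under 0.05 was 284 with a minimum intensity of 50, 923 with array weights and 108 with TNF replicate 4 included, against 430, and 314 to 888 when 1 array was left out (highest without TNF replicate 3). The number higher in TNF by a fold over 1.5 was 5 with a minimum intensity of 50, 4 with array weights and 99 with TNF replicate 4, against 11, and 9 to 22 when 1 array was left out (highest without TNF replicate 3). The number lower was 16 with array weights, 759 with TNF replicate 4 and 3 with the mean of a gene's clusters, against 6, and 1 (without TNF replicate 2) to 16 (without IL-6 Low replicate 2) when 1 array was left out. Same-numbered arrays of the 2 groups correlated in their deviations for replicates 2 (0.38) and 6 (0.222), each nearest to its own number, and not for replicates 1, 3 and 5 (-0.00741, -0.0414 and 0.0217), so the numbers were not used as pairs. With the replicate block 0 genes passed after adjustment, 590 had an unadjusted p under 0.05 (211 higher in TNF and 379 lower), and Il6st was -0.0231 and Socs3 0.0158. With the first letter of the array name, whose meaning is not given, as a block, 0 genes passed and 538 had an unadjusted p under 0.05.

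Of 1783 gene values under the alternatives 1756 kept their direction. Of the others, Socs3 (main value -0.003) was 0.0327 with each array centred on its median, 0.0284 with quantile normalization and 0.0487 with the mean of clusters, and Il6st was -0.0225 with quantile normalization and -0.0359 with array weights. With TNF replicate 4 included Piezo2 was 0.087, Tnfrsf1b 0.15, Il6st -0.408, Socs3 0.31, Ccl2 0.244, Stat3 -0.356, Ddc -0.00343, Slc10a4 -0.0721, C1qb -0.145 and Sst -0.665. When 1 array was left out, Tph2 ranged over -0.13 to 1.04, Slc6a4 over -0.28 to 0.88, Slc6a5 over -0.28 to 0.85, Socs3 over -0.0392 to 0.0515 and Il6st over -0.0231 to 0.0372, the first 3 changing direction without TNF replicate 5. The cause of these changes was not tested.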

Other observations

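Clock and glucocorticoid genes, which respond to the hour and to stress hormones, had small differences between TNF and IL-6 Low. Of 16 clock genes tested 11 had a higher mean in TNF (median 0.02) and 0 had an unadjusted p under 0.05, and without TNF replicate 6 4 of 16 did, with a median of -0.05. Ciart, a repressor of the clock, had 7.09, 6.45, 7.35, 6.85 and 7.16 on the TNF arrays, against 6.63, 7.36 and 8.39 on the IL-6 Low arrays (difference -0.39, SE 0.23), and was -0.19 without IL-6 Low replicate 4. Of 18 glucocorticoid response genes 17 had a higher mean in TNF, but by a median of 0.05, beside 0.02 for all genes, and 11 did without TNF replicate 5. Of 16 genes of prostaglandin synthesis and reception, which carry the fever signal, 7 had a higher mean in TNF (median -0.003), and of 7 MHC class II genes 4 (median 0.00012).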
